A study of Homo sapiens with 12 samples.

Results

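The Wnt receptors and the ubiquitin ligases that remove them from the cell surface were examined in HCT116 cells after MEK1/2 inhibition. They were taken by gene symbol from the count table, which listed 15798 genes, and comprised 10 genes, all of which had a row: the Frizzled receptors FZD1, FZD2, FZD3, FZD4, FZD5 and FZD6, the co-receptors LRP5 and LRP6, and the ligases RNF43 and ZNRF3. HCT116 is an established human colorectal cancer line that carries an activating mutation in CTNNB1, the gene of beta-catenin. Dishes of this 1 line were treated for 24 h with 100 nM trametinib, which blocks MEK1/2, or with the solvent DMSO alone, and all were given cycloheximide shortly before lysis to halt elongating ribosomes. From each lysate, randomly fragmented cytoplasmic RNA (input) and RNase I-resistant fragments from the monosomal part of a sucrose gradient (ribosome footprints) were sequenced, which gave 12 libraries: 3 of input and 3 of footprints for each of the treatments. The labels call the 3 libraries of a group biological replicates of 1 cell line, so p-values measure the spread between these dishes only.

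Frizzled receptors are membrane proteins that bind Wnt ligands through a cysteine-rich domain and pass the signal to Dishevelled, and LRP5 and LRP6 are the co-receptors whose phosphorylated tails recruit AXIN1 to the membrane. RNF43 and its paralog ZNRF3 are transmembrane RING-type ligases that attach ubiquitin to Frizzled and thereby send Frizzled and LRP6 to degradation, while R-spondins bound to LGR4, LGR5 or LGR6 take the ligases away. Both ligases are themselves known Wnt target genes, and in colorectal cells with mutated beta-catenin the pathway is active downstream of the receptors.

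The reads were counted inside open reading frames, and a read was kept only where it belonged to a single gene symbol, so the coding sequence decides what can be counted for each gene. FZD1, FZD2 and FZD5 have 1 coding exon each, FZD4 has 2, FZD3 and FZD6 have 6, RNF43 and ZNRF3 have 9, and LRP5 and LRP6 have 23 (Gencode V44, GRCh38). The coding sequence was cut into all windows of 30 bases, about the length of a footprint, and each window was searched for in the reading frames of all other symbols. FZD2 lies on chromosome 17 from 44557484 to 44561262 (plus strand), LRP5 on chromosome 11 from 68312591 to 68449275 (plus strand) and LRP6 on chromosome 12 from 12116025 to 12267044 (minus strand). No window of FZD3, FZD4, FZD6, LRP5, LRP6 or ZNRF3 was shared. FZD2 shared 9.54% of its windows, with FZD1, FZD5, FZD7 and EPHB3, while FZD1 shared 6.07% and FZD5 shared 4.87%. The longest identical stretch of FZD1 and FZD2 was 81 bases long, while that of LRP5 and LRP6 was 25 bases and that of the ligases 18 bases, no longer than the shortest reads counted (25 nt). The last 2 are shown because they mark how far the reads of these paralogs can be told apart.
LRP5 and LRP6 (coding bases 1415 to 1439 of LRP5): tcatgtactggacagactggggaga
RNF43 and ZNRF3 (coding bases 814 to 831 of RNF43): tgtgccatctgtctggag

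RNF43 stood apart in this respect. Its gene lies on chromosome 17 from 58353676 to 58417595 on the minus strand (GRCh38), and 2279 of its 2320 windows (98.23%) were also present in the reading frame of ENSG00000285897, an annotated readthrough gene that overlaps it. Only 41 windows belonged to RNF43 alone. Together they cover the last 70 coding bases, from position 2280 to 2349, of which the first also lie in shared windows. These windows span the junction of coding exons 8 and 9 (58354946 to 58357496). Their bases are shown because RNF43 counts could, by this annotation, come only from this end or from reads that run past it.
RNF43 coding bases 2280 to 2349: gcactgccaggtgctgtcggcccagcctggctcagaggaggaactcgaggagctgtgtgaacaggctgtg
ZNRF3, on chromosome 22 from 28883572 to 29057488 (plus strand), was countable over all its 2779 windows. The counts themselves were made on Gencode V38, which was not used here, so the countable part of RNF43 was judged from a later annotation and may have been larger in the counting itself.

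The start codon contexts are shown because initiation sets how a message is loaded with ribosomes. The start codon is in capitals, with 9 bases on either side (Gencode V44). FZD3 and FZD6 are not shown.
FZD1: cgagaaagtATGgctgaggag
FZD2: gcggccagcATGcggccccgc
FZD4: atgctggccATGgcctggcgg
FZD5: gagggggcgATGgctcggcct
LRP5: ccggacaacATGgaggcagcg
LRP6: gaagggaagATGggggccgtc
RNF43: gctggtagcATGagtggtggc
ZNRF3: cgcaggaccATGaggccgcgc
All 8 have a purine at the third base before the codon. The base just after the codon is G in FZD1, FZD4, FZD5, LRP5 and LRP6, C in FZD2, and A in both ligases.

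Input libraries held 2276693 to 2845568 reads in open reading frames and footprint libraries 10127477 to 19181588. The treatment was visible in all 11 ERK output genes listed (feedback regulators and transcription factors under ERK control), which fell in input and in footprints, with median log2 changes of -4.07 and -4.50. Epithelial markers summed to 5159 to 7390 CPM (counts scaled to library size) in DMSO input and 8404 to 10619 in trametinib input, and 10 fibroblast, endothelial and leukocyte markers to 11.5 to 14.9 and 30.3 to 37.6. In footprints the latter summed to 6.62 to 9.68 CPM in DMSO and 23.6 to 35.7 after trametinib. Of these markers 2 of 3 tested rose in input (median log2 change 2.51) and 2 of 4 in footprints (1.18). Of the epithelial markers 4 of 7 tested rose in each assay (median log2 change 0.44 in both). Of all genes tested 15.4% rose in input and 24.0% in footprints. The endothelial CDH5 and the T cell marker CD3E were at 0 in all 6 input libraries and in the DMSO footprint libraries, but not in all trametinib footprint libraries. The part of these markers in the results below was not tested. Dish 1 of the DMSO group stood apart, since the deviations of its input and footprint libraries from their group means correlated at 0.816 over 7669 genes, against 0.181 and 0.343 in the other DMSO dishes and -0.122 to 0.141 in the trametinib dishes. Values below are normalized counts, that is raw counts divided by the size factor of each library. This scaling hides any change that touches all mRNAs alike, and in bulk lysates fewer cells and less RNA per cell cannot be told apart.

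Of the 8 receptors, 7 carried more ribosome footprints relative to the other genes after trametinib, and 3 of these also rose in input RNA. Of the ligases, ZNRF3 passed in neither assay, and RNF43, which was tested in input only, did not pass there. The study's polysome profiling found a lower polysomal share in this line after the same treatment, a global fall that the scaling cannot show. Absolute ribosome occupancy was not measured here. In footprints, 7 of the 9 members tested rose and 0 fell at an adjusted p under 0.05 (edgeR quasi-likelihood test, Benjamini-Hochberg over 11892 genes), where 24.0% of all genes tested rose and 48.5% changed in either direction. In input, 3 of 10 members rose and 0 fell, where 15.4% of 10534 genes rose and 32.2% changed in either direction. The median log2 change of the members was 0.53 in footprints and 0.38 in input, where the median of all genes tested was 0.00177 and -0.00268. Without DMSO dish 1, 7 members were called in footprints and 3 in input, where FZD6 took the place of FZD5. Without any 1 of the trametinib input libraries 1 member was called in input, and without trametinib footprint 1 or 3 there were 4 in footprints.

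**Figure D1:**
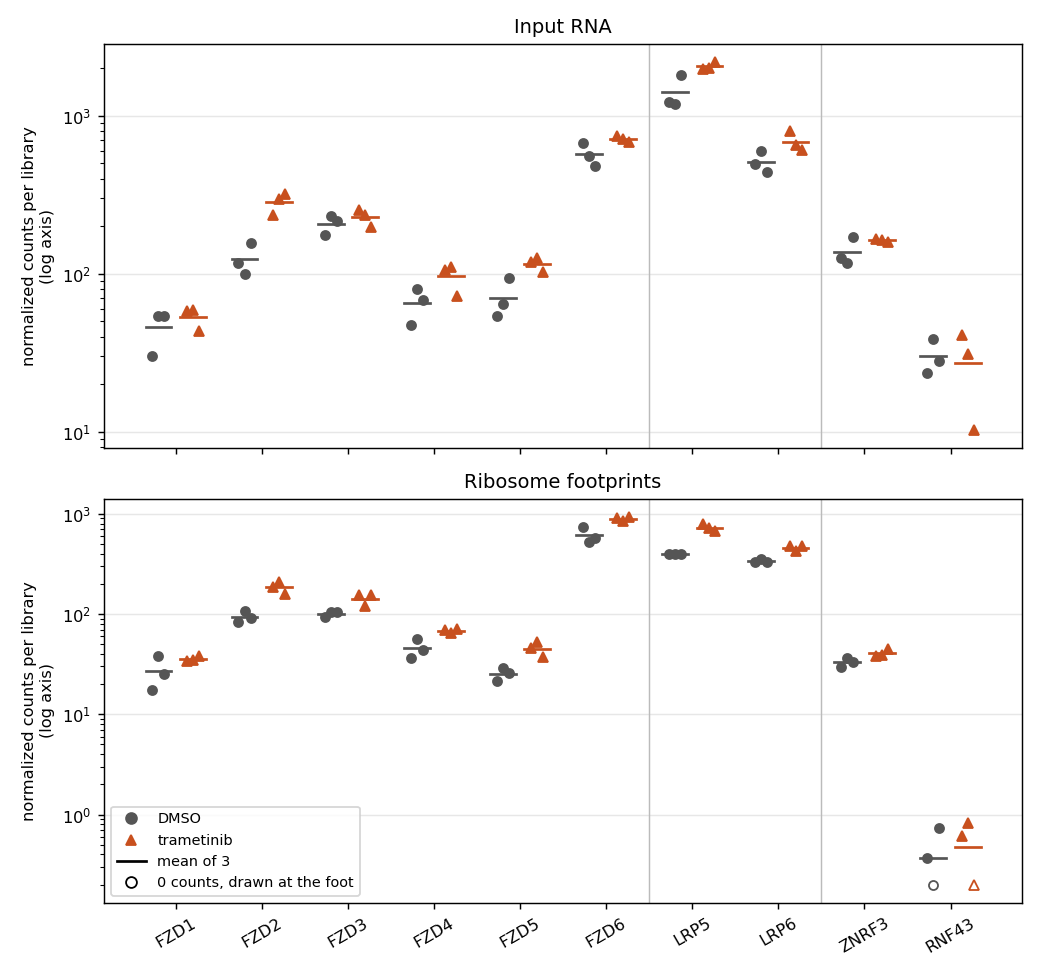
Normalized counts of the 10 members in each library on a log axis, input RNA above and ribosome footprints below, with DMSO as circles, trametinib as triangles and the mean of 3 libraries as a bar. In footprints the trametinib libraries lie above the DMSO libraries for FZD2 to FZD6, LRP5, LRP6 and ZNRF3, and open symbols mark the 2 footprint libraries with 0 RNF43 counts.

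FZD2, one of the Frizzled proteins used in both beta-catenin and non-canonical Wnt signalling, showed the largest rise of the members in both assays. Its input counts were 116, 99.4 and 157 in the DMSO libraries and 236, 299 and 319 in the trametinib libraries. Its footprint counts were 83.3, 107 and 91.4 in DMSO and 187, 211 and 159 after trametinib. The groups did not overlap in either assay, and each trametinib library lay above each DMSO library. The log2 change was 1.21 ± 0.22 (SE, n = 3 per group) in input (edgeR adjusted p = 0.00117) and 0.99 ± 0.16 in footprints (edgeR adjusted p = 0.000972). Both calls held when any 1 library was left out.

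FZD5, a Frizzled of the intestinal epithelium, rose as well but from a low level. The DMSO footprint libraries held 21.4, 28.7 and 25.8 normalized counts and the trametinib libraries 45.5, 52.6 and 37.6, so that the lowest trametinib library lay above the highest DMSO library. The log2 change in footprints was 0.85 ± 0.20 (n = 3 per group, edgeR adjusted p = 0.00733). In input the counts were 53.9, 64.8 and 93.7 against 118, 126 and 103, again without overlap, and the log2 change of 0.72 ± 0.25 was just past the threshold (edgeR adjusted p = 0.0447). That input call was lost with DESeq2 (adjusted p = 0.0937), with scaling by library totals (edgeR adjusted p = 0.0523), and when any single library other than DMSO input 3 was left out (edgeR adjusted p of 0.0710 to 0.147).

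FZD3, FZD4 and FZD6 rose in footprints and did not pass the test in input. Input was shallower, with a median SE over all genes of 0.215 against 0.159 in footprints. None of these genes passed the test of ribosome density given below, so a difference between the assays was not called. FZD6, the most abundant Frizzled here and one best known from planar cell polarity, had 746, 529 and 570 normalized footprint counts in DMSO and 900, 838 and 928 after trametinib. The groups did not overlap, although DMSO footprint 1 stood well above the other DMSO libraries. The log2 change was 0.53 ± 0.14 (edgeR adjusted p = 0.0138, n = 3 per group).
In input FZD6 gave 675, 557 and 478 against 741, 715 and 684, a log2 difference of 0.33 ± 0.16 (edgeR adjusted p = 0.136). Without DMSO input 1, the highest of the DMSO libraries, this input difference was 0.47 and passed the threshold (edgeR adjusted p = 0.0267).

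FZD3, also tied to planar cell polarity and axon guidance, had 93.6, 104 and 104 normalized footprint counts in DMSO and 154, 119 and 154 after trametinib. Trametinib footprint 2 was nearest to the DMSO libraries, and the groups did not overlap. The log2 change in footprints was 0.50 ± 0.15 (n = 3 per group, edgeR adjusted p = 0.0205), while in input, where the groups overlapped, it was 0.16 ± 0.19 (edgeR adjusted p = 0.555). FZD4, which binds Norrin as well as Wnt ligands, had 36.8, 56.7 and 43.9 footprint counts in DMSO and 69.7, 64.5 and 70.4 after trametinib, with no overlap. Its log2 change was 0.59 ± 0.18 in footprints (n = 3 per group, edgeR adjusted p = 0.0249) and 0.57 ± 0.27 in input (edgeR adjusted p = 0.124), where trametinib input 3, at 72.0, fell below the highest DMSO library, at 79.9.

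The footprint calls of these 3 genes depended on single libraries. FZD3 missed the threshold without trametinib footprint 1 (edgeR adjusted p = 0.1001) or 3 (0.0787). FZD6 missed it without trametinib footprint 1 (edgeR adjusted p = 0.0558) or 3 (0.0593) or DMSO footprint 2 (0.0513). FZD4 missed it without DMSO footprint 3 (edgeR adjusted p = 0.0592) or without any trametinib library (0.0622 to 0.0876).

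FZD1, a close paralog of FZD2, was low in both assays and did not pass the test in either. The DMSO input libraries held 30.2, 54.0 and 53.9 normalized counts and the trametinib input libraries 57.8, 59.2 and 43.7. Footprint counts were 17.7, 38.4 and 25.4 in DMSO and 33.8, 34.9 and 38.5 after trametinib. The groups overlapped in both assays, with log2 differences of 0.23 ± 0.31 in input (nominal 95% interval -0.37 to 0.84) and 0.42 ± 0.26 in footprints (-0.094 to 0.94). Without DMSO footprint 2, the highest of its group, the footprint difference was 0.72 and passed the threshold (edgeR adjusted p = 0.0397).

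The co-receptors rose together in footprints. LRP5 had 393, 401 and 394 normalized footprint counts in DMSO and 786, 726 and 670 after trametinib. The groups lay far apart, and the log2 change of 0.87 ± 0.11 (n = 3 per group) had the smallest adjusted p of the members (edgeR, 0.000216). In input LRP5 gave 1223, 1182 and 1812 in DMSO and 1981, 2012 and 2175 after trametinib. DMSO input 3 stood close to the trametinib libraries without reaching them, and the log2 change was 0.56 ± 0.18 (edgeR adjusted p = 0.0288). The input call was lost without DMSO input 2 (edgeR adjusted p = 0.112) and without any 1 of the trametinib libraries (0.0643 to 0.103), whereas the footprint call held without any 1 library.

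LRP6, the better studied of the co-receptors, had 334, 350 and 332 normalized footprint counts in DMSO and 477, 426 and 472 after trametinib. The groups did not overlap, and the log2 change was 0.43 ± 0.10 (n = 3 per group, edgeR adjusted p = 0.00704), a call that held without any 1 library. In input its counts were 494, 601 and 440 against 797, 648 and 609. These groups also lay apart, though only narrowly, and the log2 difference of 0.43 ± 0.17 missed the threshold (edgeR adjusted p = 0.0707). It passed without DMSO input 2 (edgeR adjusted p = 0.0464).

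Neither ligase passed a test, and RNF43 was tested in input only. ZNRF3 had 29.5, 36.5 and 33.5 normalized footprint counts in DMSO and 38.4, 39.4 and 45.2 after trametinib. Each trametinib library lay above each DMSO library by a small margin, and the log2 difference was 0.31 ± 0.17 (nominal 95% interval -0.026 to 0.64, n = 3 per group, edgeR adjusted p = 0.165). In input it gave 125, 117 and 171 against 166, 165 and 159, with DMSO input 3 above every trametinib library. The log2 difference was 0.26 ± 0.21 (nominal 95% interval -0.15 to 0.67, edgeR adjusted p = 0.370). These intervals hold both no change and a rise as large as the changes of several receptors. With scaling by library totals, which lifted the median footprint change of all genes to 0.18, the ZNRF3 footprint difference was 0.49 and passed the threshold (edgeR adjusted p = 0.0395).

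RNF43 was close to the limit of detection. Its raw input counts were 11, 18 and 12 in DMSO and 17, 12 and 4 after trametinib, and its raw footprint counts were 1, 0 and 2 against 2, 2 and 0. The groups overlapped fully in both assays. In input the log2 difference was -0.12 ± 0.44 (nominal 95% interval -0.98 to 0.74, edgeR adjusted p = 0.859, n = 3 per group). The sign turned without DMSO input 2 or without trametinib input 3, the library with 4 counts. Footprints were not tested, since the 6 libraries held a mean below the minimum of 10 counts. At such counts no footprint difference of RNF43 was detectable. Together the DMSO dishes gave 3 footprints among 44 RNF43 reads (6.82%, exact Clopper-Pearson 95% interval 1.43 to 18.7%) and the trametinib dishes 4 among 37 (10.8%, 3.03 to 25.4%). For ZNRF3, 227 of 412 reads in DMSO (55.1%, 50.2 to 60.0%) and 316 of 511 after trametinib (61.8%, 57.5 to 66.1%) were footprints, and over all genes the share was 85.3% and 86.7%. The intervals cover counting error only. By Gencode V44 only the end of the RNF43 reading frame shown above was countable, which was not checked on the V38 set used for counting, and the part of this in its low share of footprints was not tested.

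**Figure D2:**
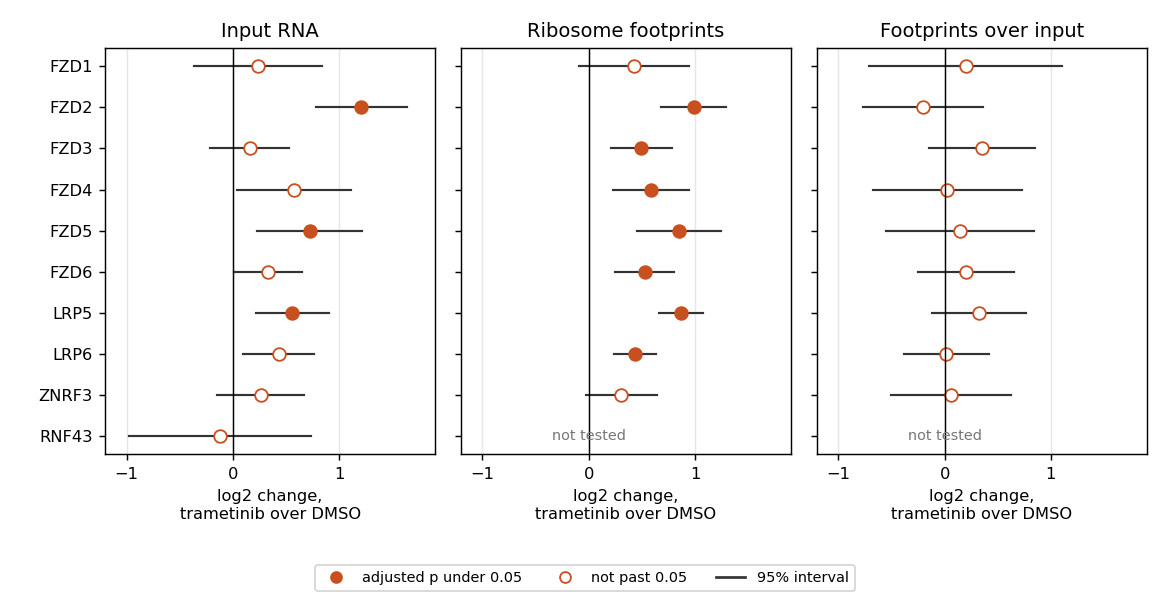
Log2 change of each member after trametinib in input RNA, ribosome footprints and footprints over input, with 95% intervals and filled points for an adjusted p under 0.05. In footprints 7 of 9 members tested are filled, in input 3 of 10, and in footprints over input 0 of 9.

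Counted by the libraries alone, all trametinib libraries lay above all DMSO libraries for 8 of 9 members in footprints and 5 of 10 in input. Of all genes tested, 3569 of 11892 did so in footprints and 2424 of 10534 in input. The 5 members in input were FZD2, FZD5, FZD6, LRP5 and LRP6, and FZD1 was the exception in footprints.

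Ribosome density, the ratio of footprints to input, was tested as the interaction of assay and treatment over all 12 libraries. None of the 9 members tested passed the threshold (DESeq2 likelihood ratio test, Benjamini-Hochberg over 10502 genes), 0 had an unadjusted p under 0.05, and edgeR and limma also called 0 members. Of all genes tested 0.324% rose, 1.43% fell and 1.75% passed in either direction. The log2 differences in density ran from -0.21 ± 0.29 in FZD2 (95% interval -0.77 to 0.36) to 0.35 ± 0.25 in FZD3 (-0.14 to 0.85). LRP5 stood at 0.33 ± 0.23 (-0.12 to 0.77), FZD6 at 0.20 ± 0.23 and FZD1 at 0.20 ± 0.46. FZD5 stood at 0.14 ± 0.35, ZNRF3 at 0.058 ± 0.29, FZD4 at 0.026 ± 0.36 and LRP6 at 0.015 ± 0.20. Of the 9 differences 8 were above 0, the median was 0.14, and the median over all genes was -0.000168. The intervals reach up to 0.41 in LRP6, 0.77 in LRP5, 0.72 in FZD4, 0.84 in FZD5 and 1.11 in FZD1. Those of the co-receptors were narrower than those of the rare FZD1, FZD4 and FZD5, but LRP5 allows a rise as large as FZD4 does.

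Within each treatment the ratio of footprints to input differed widely between the members. In DMSO, the mean normalized footprint count divided by the mean normalized input count was 1.08 for FZD6, close to the median of 1.03 over 10534 genes. It was 0.755 for FZD2, 0.703 for FZD4, 0.662 for LRP6, 0.591 for FZD1 and 0.485 for FZD3, and lower still in FZD5 (0.357), LRP5 (0.282) and ZNRF3 (0.241). Only 3.43% of all genes had a lower ratio than ZNRF3, 4.77% a lower one than LRP5 and 8.02% a lower one than FZD5. RNF43, at 0.0122, had 1 gene below it. Its value rests on 3 footprints in DMSO and, by Gencode V44, on the small unshared end of its reading frame. It is therefore not read as occupancy of the message. LRP5 and LRP6, of nearly equal coding length (4845 and 4839 bases), thus differed in density. In the 3 DMSO dishes the ratio was 0.322, 0.340 and 0.217 for LRP5 and 0.676, 0.583 and 0.754 for LRP6, and after trametinib 0.397, 0.361 and 0.308 against 0.599, 0.658 and 0.775. Every dish had the lower ratio in LRP5.

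Base composition of the coding sequence varied over the same genes. LRP5 (63.6% G and C), ZNRF3 (65.7%) and FZD5 (67.6%) were rich in G and C, as were FZD1 (65.5%) and FZD2 (65.1%), whereas FZD6 (42.5%), FZD3 (43.7%) and LRP6 (46.5%) were not, with FZD4 (50.4%) and RNF43 (60.6%) between. The part of composition in these ratios was not tested.

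**Figure D3:**
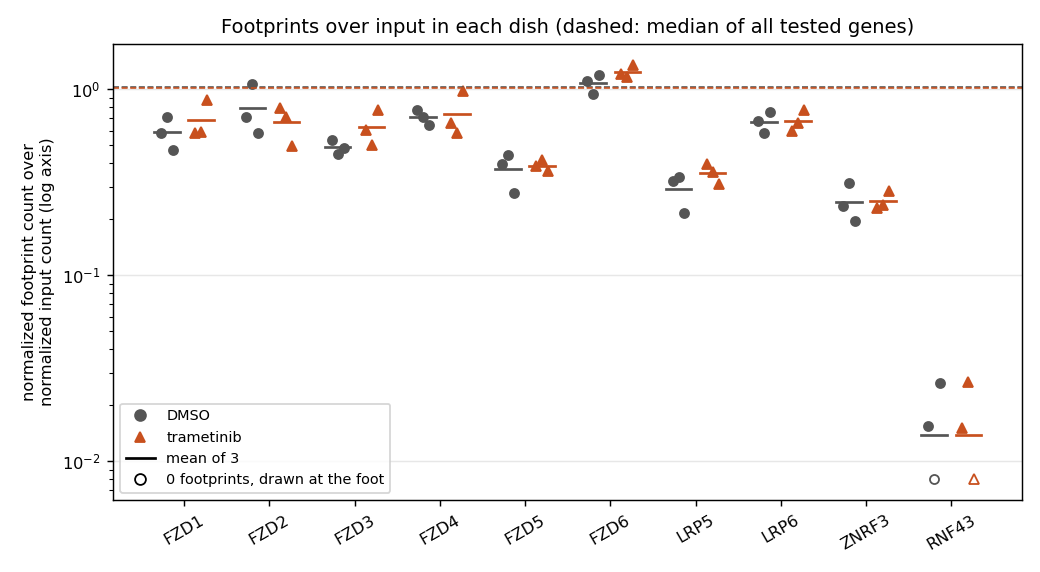
Normalized footprint count over normalized input count of each member in each dish on a log axis, with DMSO as circles, trametinib as triangles, the mean of 3 dishes as a bar and the median of all tested genes as dashed lines. FZD6 lies near the median, LRP5, ZNRF3 and FZD5 lie at 0.196 to 0.442 in every dish, and RNF43 lies at or below 0.0266.

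Levels of different genes were compared only per kb of countable coding sequence, in CPM. CPM scales by library totals, with which the median footprint change of all genes was 0.184 instead of 0.00177. Footprint rises read from CPM are thus larger than the changes given above. In DMSO footprints FZD6 was highest at 43.9 ± 7.85 (SD, n = 3), followed by LRP5 (12.3 ± 0.294), LRP6 (10.5 ± 0.455), FZD2 (9.31 ± 1.31), FZD3 (7.64 ± 0.529), FZD4 (4.33 ± 1.01), FZD5 (2.30 ± 0.360), FZD1 (2.27 ± 0.904) and ZNRF3 (1.78 ± 0.210). The ranges of LRP6 and FZD2 overlapped, as did those of FZD5 and FZD1 and those of FZD1 and ZNRF3, so these neighbours did not differ beyond their spread. After trametinib FZD6 stood at 71.8 ± 3.28, LRP5 at 25.5 ± 2.21 and FZD2 at 20.8 ± 3.09, which overlapped LRP5 and lay above LRP6 (16.1 ± 0.927). ZNRF3 was lowest at 2.49 ± 0.1997.

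In input the order was another one. LRP5 (49.4 ± 13.2) and FZD6 (45.9 ± 6.69) overlapped at the top in DMSO, LRP6 (17.9 ± 3.03), FZD3 (17.9 ± 3.03) and FZD2 (13.9 ± 3.49) overlapped below them, and ZNRF3 (8.36 ± 1.91), FZD5, FZD4 and FZD1 (4.35 ± 1.39) closed the order. After trametinib LRP5 (72.1 ± 3.51) lay above FZD6 (57.7 ± 2.36), and FZD2 (31.9 ± 4.94) came next, overlapping LRP6 (24.0 ± 3.37). RNF43 was left out of this order. Read over its 41 countable windows it would stand at 125 ± 34.7 in DMSO input, above every other member, and read over its whole frame at 2.18, so its level cannot be placed, and the countable part taken from Gencode V44 may be too small.

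The Frizzled genes were also read as a pool, in which the counts of all 9 genes with a row (FZD1 to FZD9) were added in each library. FZD10 was not analysed here. The pool held 200 ± 6.20 CPM in DMSO input and 286 ± 15.3 in trametinib input (SD, n = 3), and 153 ± 11.1 and 264 ± 7.52 in footprints, with no overlap in either assay. With this scaling by library totals the median footprint change of all genes was itself 0.184. FZD6 made up 59.7 ± 6.71% of the footprint counts in DMSO and 56.9 ± 2.63% after trametinib, with overlapping ranges. The share of FZD2 in input was 10.5 ± 2.61% in DMSO and 16.9 ± 3.07% after trametinib, and its lowest trametinib share (13.7%) lay just above its highest DMSO share (13.4%). The share of FZD7, another close paralog of FZD2, was 7.95 ± 1.33% and 11.3 ± 0.471% in input, again without overlap. In footprints the shares of FZD2 (9.23 ± 1.68% and 11.9 ± 1.79%) and FZD7 (11.3 ± 1.18% and 12.4 ± 1.75%) overlapped between the treatments. These shares are raw counts and are not corrected for length. FZD8 and FZD9 together added at most 1.08% in any library.

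**Figure D4:**
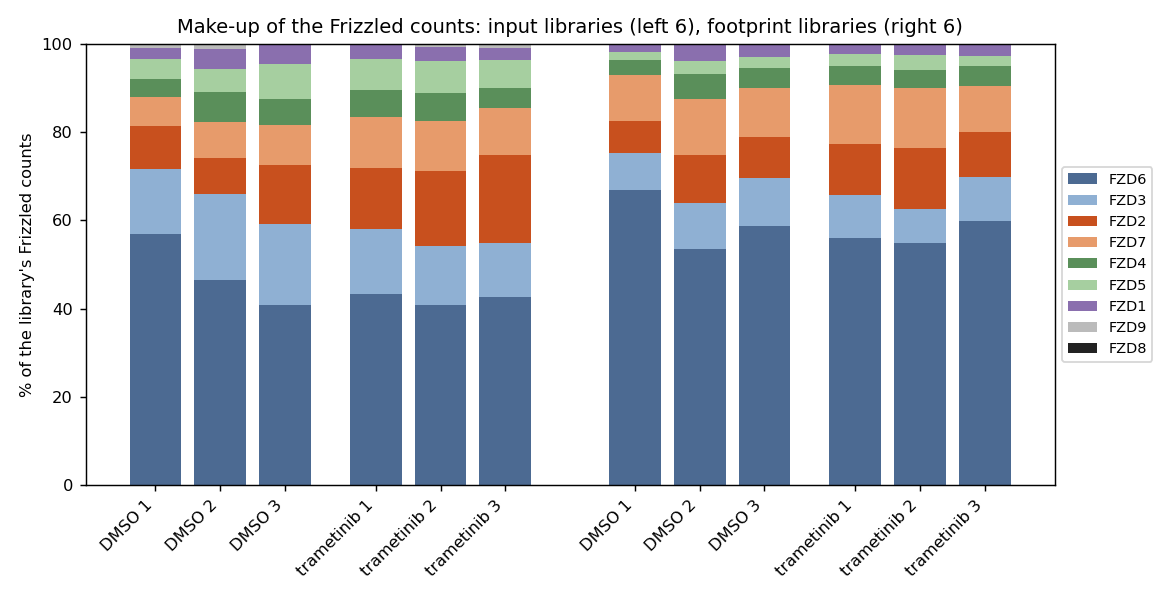
Share of each Frizzled gene in the Frizzled counts of each library, in percent, for the 6 input libraries on the left and the 6 footprint libraries on the right, with DMSO and trametinib replicates side by side. FZD6 is the largest part of every bar, and the FZD2 and FZD7 parts are larger in the trametinib input libraries than in the DMSO input libraries.

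Ratios of paralogs within a library need no scaling and were compared between treatments by exact two-sided permutation tests, for which 3 against 3 libraries cannot go below p = 0.1. P-values were adjusted over the 6 ratios tested. The log2 ratio of LRP5 to LRP6 in footprints was 0.24, 0.20 and 0.25 in the DMSO libraries. In the trametinib libraries it was 0.72, 0.77 and 0.51. The group means differed by 0.44, and the pooled SD of single libraries within a group was 0.10. All 3 trametinib libraries were higher (exact permutation p = 0.1, adjusted 0.3). In input the same ratio differed by 0.15 and the groups overlapped (exact permutation p = 0.7, adjusted 0.8).

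The log2 ratio of FZD1 to FZD2 fell from -1.43 to -2.38 on average in input, with all 3 trametinib libraries below all DMSO libraries (exact permutation p = 0.1, adjusted 0.3). In footprints it differed by -0.52 and the groups overlapped (exact permutation p = 0.2, adjusted 0.4). The ratio of RNF43 to ZNRF3 differed by -0.56 in input (exact permutation p = 0.5) and by -0.25 in footprints (exact permutation p = 0.8), where it rests on 0 to 2 RNF43 counts a library.

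**Figure D5:**
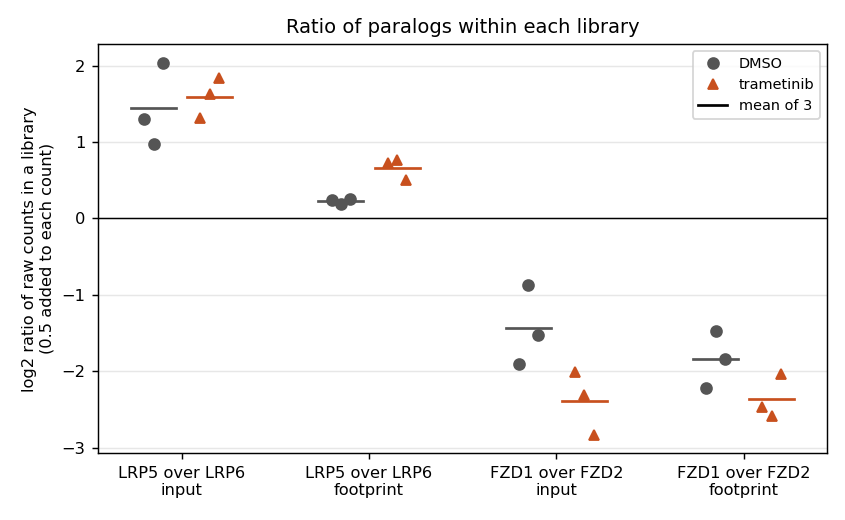
Log2 ratio of raw counts of LRP5 to LRP6 and of FZD1 to FZD2 within each library, with 0.5 added to each count, DMSO as circles, trametinib as triangles and bars for the mean of 3. The treatments separate for LRP5 over LRP6 in footprints and for FZD1 over FZD2 in input, and overlap in the other 2 columns.

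The remaining Wnt receptors were counted as a list. Of 10 with a row, 5 were tested in input and 6 in footprints, where 15.4% and 24.0% of all genes rose. In each assay 4 rose and 0 fell: FZD7, the adhesion-type co-receptor PTK7, the Wnt5a receptor ROR2 and the R-spondin receptor LGR4. LGR4 changed most, by 1.19 ± 0.33 in input (edgeR adjusted p = 0.0150) and 1.64 ± 0.22 in footprints (edgeR adjusted p = 0.000377), from 50.4 ± 15.2 to 156 ± 16.4 normalized footprint counts (SD, n = 3). FZD7 changed by 1.03 ± 0.21 and 0.75 ± 0.15, PTK7 by 0.61 ± 0.14 and 0.64 ± 0.13, and ROR2 by 0.62 ± 0.19 and 0.59 ± 0.15.
RYK stood at 0.063 ± 0.14 in input and -0.076 ± 0.16 in footprints and passed in neither (edgeR adjusted p = 0.764 and 0.717). ROR1, tested in footprints only, differed by -0.28 ± 0.23 (edgeR adjusted p = 0.357). LGR5, LGR6, FZD8 and FZD9 were too low for a test, and LGR5 had 0 counts in all 6 input libraries. None of these receptors passed in ribosome density (0 of 5 tested).

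Several genes that act on the receptors from outside rose as well. Of 39 ligands and extracellular modulators, 30 had a row, 14 were tested in footprints and 9 rose while 1 fell (24.0% and 24.5% of all genes tested). In input 3 of 7 tested rose and 0 fell (15.4% and 16.8% of all genes). NOTUM, a Wnt deacylase and known Wnt target, had 46.7 ± 15.9 normalized footprint counts in DMSO and 117 ± 15.9 after trametinib, a log2 change of 1.35 ± 0.24 (edgeR adjusted p = 0.00188). WNT7B and WNT9A, both ligands, changed by 1.31 ± 0.23 and 1.47 ± 0.27 in footprints from low levels (edgeR adjusted p = 0.00168 and 0.00192). KREMEN1, a receptor for the inhibitor DKK1 that removes LRP6 from the surface, changed by 0.77 ± 0.25 in input (edgeR adjusted p = 0.0329).

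Of 13 genes of receptor folding, trafficking and turnover, 9 were tested in footprints, of which 3 rose and 0 fell, where 24.0% of all genes rose. TMEM59, which promotes clustering of Frizzled with LRP6, changed by 1.12 ± 0.16 (edgeR adjusted p = 0.000456), ATP6AP2, an LRP6-associated subunit of the proton pump, by 0.67 ± 0.14 (0.00407), and USP8, which deubiquitinates Frizzled and so counters the ligases, by 0.64 ± 0.11 (0.00175). In input TMEM59 alone of 7 tested rose (0.96 ± 0.17, edgeR adjusted p = 0.000872), where 15.4% of all genes rose.

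Downstream of the receptors, 7 of 14 signal transducers tested rose in footprints and 0 fell, where 24.0% of all genes rose. In input 2 of 14 rose and 1 fell, close to the 15.4% and 16.8% of all genes. AXIN2, a scaffold of the destruction complex and the best known Wnt target gene, changed by 2.28 ± 0.35 in input (edgeR adjusted p = 0.000353) and 2.17 ± 0.52 in footprints (0.00777). CSNK1A1, the priming kinase for beta-catenin, fell by 0.85 in input (edgeR adjusted p = 0.0152) and rose by 0.47 ± 0.14 in footprints (0.0208). It was the only transducer of 14 to pass in ribosome density, at 1.34 ± 0.33 (DESeq2 likelihood ratio test, adjusted p = 0.00418). Its input counts were widely spread, at 951 ± 268 in DMSO and 525 ± 148 after trametinib (SD, n = 3). Over all genes 34 rises in density were called, against 10 with edgeR and 4 with limma, and the CSNK1A1 values of those fits are not given here. The study reported no significant change in translation for AXIN1 or other Wnt pathway components, and its text does not name CSNK1A1 there. Of the listed Wnt target genes, 2 of 4 tested rose in input and 3 of 5 in footprints (AXIN2, NOTUM and TNFRSF19), beside the same 15.4% and 24.0% of all genes, with median changes of 0.40 and 1.35.

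The genes whose levels ran most alike to the ligases were taken from the whole table by the correlation of log2 CPM over the 12 libraries, centred within each assay. For ZNRF3 they were TMEM151A (r = 0.954), ZNF792 (0.949) and MAP3K6 (0.946). For RNF43 they were MKRN2 (0.8), POM121 (0.779) and C11orf80 (0.765). The points share their libraries and treatment, and the RNF43 values rest on few counts.

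The table of RefSeq promoters (GRCh38.p14, 300 bases around a start site) held 6 windows of the members outside chromosome 8: 1 each for FZD1, FZD4, FZD5 and LRP5 and 2 for RNF43. They were searched on both strands for the TCF/LEF letters CTTTGAT and CTTTGTT and the ETS letters CCGGAAG, which 2.60%, 5.20% and 10.3% of 35116 promoters hold. None of the 6 windows held any of them, which says only that these letters are absent from these bases.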

How the data were processed

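The deposited table of the authors held, for each of 12 HCT116 Ribo-seq libraries, raw counts per gene symbol and these counts over the size factor of the library (signal, a normalized read count). Per the study's methods and processing notes, the authors removed adapters and reads aligning to rRNA and tRNA, mapped the rest with Bowtie (1.2.2) to the basic Gencode transcript set, and counted reads of 25 to 35 nt inside open reading frames of a single symbol. Genes with shared sequence are thus measured on the remainder. The table also held the authors' fold changes and adjusted p-values from DESeq2 (1.46.0) and gene set marks, which were not used. The number of unused columns with values of a library was 0. For all 12 libraries the deposited size factors were recovered from the counts.

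Groups and replicate numbers came from the labels. Input and footprint changes were tested on the raw counts within the 6 libraries of each assay with the quasi-likelihood test of edgeR (4.0.16, R 4.3.3) and TMM scaling, on genes with a mean of at least 10 counts. SE was the log2 change divided by the square root of F, and 95% intervals are 1.96 SE to either side. This normal multiplier makes the edgeR intervals narrower than the test implies, so they are nominal. In input the intervals of FZD4 (0.043 to 1.11, edgeR unadjusted p = 0.0547) and FZD6 (0.015 to 0.65, edgeR unadjusted p = 0.0612) leave out 0. Ribosome density was tested by the DESeq2 (1.42.0) likelihood ratio test of the assay by treatment interaction on genes passing both filters. P-values were adjusted by Benjamini-Hochberg over all genes tested, with a threshold of 0.05. The scripts were run on simulated data with known changes and the same spread for all genes. Most changes of the members were smaller than those simulated, so that run does not show how well they are recovered. Alternatives were limma (3.58.1, prior count 2), the other count tool, other scalings and filters, replicate terms and leaving out each library. Input libraries were shallower, and the median SE of a log2 change was 0.215 in input, 0.159 in footprints and 0.293 in density.

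Pairing by number was checked on 7669 genes that averaged 100 or more normalized counts. The study's methods take input and footprints from the same lysate, so that equal numbers within a treatment mark a dish. Across treatments, deviations of equal numbers correlated at 0.117, 0.133 and 0.294 in footprints, all above the 0.1 used as the rule. In input they correlated at 0.0680, 0.0484 and 0.334. Input and footprints of the same dish correlated at 0.816, 0.181 and 0.343 in DMSO and at only 0.141, 0.0803 and -0.122 after trametinib. The check therefore cannot decide whether numbers pair across treatments. The values reported come from fits without the replicate number, and fits with it are alternatives. All 10 members are named. Of the other lists, up to 3 genes with the largest change per comparison are named, plus all other receptors. The members and lists were chosen with earlier results of these data known. Gene models came from Gencode V44 (GRCh38), promoters from RefSeq. Protein sequences were not used here.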

Additional observations from a re-analysis of the deposited data

How the results depend on the processing

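Under settings that kept all libraries, 209 values of single members had the sign and the call reported and 4 did not, namely the FZD5, LRP6 and ZNRF3 values below. With a replicate block, LRP6 passed in input (edgeR adjusted p = 0.0408) and 4 members rose there. Whether the numbers pair across treatments was not decided by the check above. With the same block 7 members rose in footprints, and with a replicate block for the number or for each dish 0 members passed in density, so the pairing changed no other call of a member. The block moved the number of genes that rose in density from 34 to 21, and a block for each dish to 24. The number that rose was also 10 with edgeR, 4 with limma and 141 with library totals, and 87 fell with edgeR against 150. With library totals, 65.9% of the footprint calls over all genes were rises, against 49.6%, and 56.0% of the density calls, against 18.5% (27.9% with TMM scaling), with median changes of 0.184 and 0.177. FZD5 missed the input threshold with DESeq2 and with library totals, and ZNRF3 passed in footprints with library totals.

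Leaving out 1 library at a time, 1 to 3 members rose in input, with 1 without any trametinib input library, and 4 to 7 in footprints, with 4 without trametinib footprint 1 or 3. Over all genes, 1043 to 1741 rose in input (1622 with all libraries; 1043 without trametinib input 2) and 7 to 38 in density (34 with all libraries; 16 to 22 without DMSO input 1 or 2, DMSO footprint 2 or trametinib input 1, 10 to 13 without any trametinib footprint library and 7 without trametinib input 2). Values that turned sign were those of FZD1 (-0.00061 to 0.36) and RNF43 (-0.53 to 0.26) in input and, in density, FZD1 (-0.034 to 0.50), FZD4 (-0.17 to 0.21), FZD5 (-0.12 to 0.30), LRP6 (-0.13 to 0.14) and ZNRF3 (-0.14 to 0.15), of which 0 passed the threshold in any setting. The log2 ratio difference of LRP5 to LRP6 ranged from 0.39 to 0.52 in footprints and from -0.080 to 0.45 in input, and that of RNF43 to ZNRF3 from -0.70 to 0.46 in footprints. The cause of these changes was not tested; fits without a library have fewer samples. RNF43 had 0 to 2 footprints a library, and the reason for these low counts was not tested.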
